A study of Sus scrofa with 2 samples.

Results

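The barcodes described here are those in which more than 10% of unique molecular identifiers (UMIs) came from the 13 protein genes of the mitochondrial genome (ND1, ND2, COX1, COX2, ATP8, ATP6, COX3, ND3, ND4L, ND4, ND5, ND6 and CYTB), whatever their number of genes or UMIs. They were 1450 of 9239 barcodes in 2 single-cell RNA libraries of pig skin. The fresh library held 1004 of them among 4379 barcodes (22.9%, 95% exact binomial interval 21.7 to 24.2%). The cryopreserved library held 446 among 4860 barcodes (9.18%, 8.38 to 10.0%). They were chosen by this measured mitochondrial share, which is therefore given as a description. All intervals cover counting error only, and with 1 library in each condition no difference between conditions or between barcodes has a replicate check or a test.

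The study asked whether freezing dissociated skin cells keeps their RNA profile. Cells came from dorsal skin of healthy young male farm pigs, were separated with an enzymatic whole-skin kit, and were loaded fresh or after storage in liquid nitrogen in 90% fetal bovine serum with 10% dimethyl sulfoxide. Freezing was the single treatment named. The paper describes removing dead cells, which take up the dye ethidium homodimer-1, by flow sorting, with magnetic beads as an alternative. About 8000 cells were loaded on a droplet 3′ assay. The sample labels mark 1 library as untreated and 1 as frozen, although their shared preparation text describes freezing, and the sources used here do not say whether both came from the same animal.

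Mitochondria carry a small circular genome that encodes core subunits of the respiratory chain and of ATP synthase, and its messenger RNAs stay inside the organelle, behind its membranes. The other RNAs counted in a droplet come from the nucleus and are found in the nucleus and the cytoplasm. A high mitochondrial share is therefore widely used in single-cell work as a mark of cells that have lost cytoplasmic RNA, although metabolically active cells can also have a high share. RNA set free by broken cells enters every droplet, so a droplet with little RNA of its own shows that shared background most clearly.

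The share of UMIs on mitochondrial genes ran from just over the limit to 93.7% among fresh barcodes and 85.8% among cryopreserved ones. Its median among the barcodes over the limit was 43.8% among fresh barcodes and 15.7% among cryopreserved ones, against 3.39% and 3.45% among the barcodes at or under the limit. The fresh barcodes over the limit were thus spread over the whole range, and the cryopreserved ones lay mostly near the limit. From 10 to 20% there were 283 fresh barcodes (6.46% of the library) and 276 cryopreserved barcodes (5.68%). Above 40% there were 530 fresh barcodes (12.1%) and 109 cryopreserved barcodes (2.24%). In neither library did the counts fall steadily with the share. In the fresh library 165 barcodes lay between 40 and 60% and 273 between 60 and 80%, with 92 above 80%. The cryopreserved counts in the same ranges were 26, 67 and 16.

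**Figure D1:**
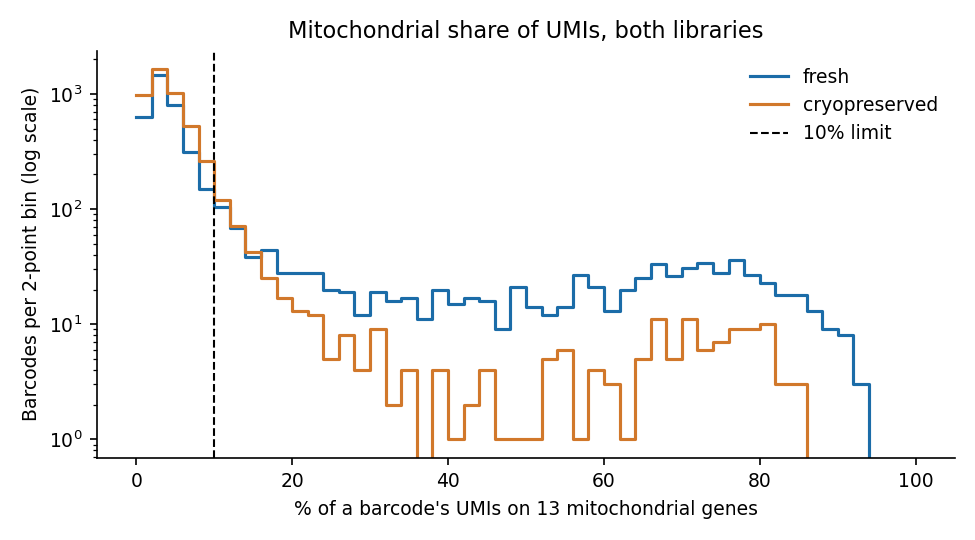
Number of barcodes (log axis) by percent of UMIs on the 13 mitochondrial protein genes, in bins of 2 points, for the fresh and the cryopreserved library. Both libraries peak at a few percent, and both rise again between 60 and 80%, with 273 fresh and 67 cryopreserved barcodes after 165 and 26 between 40 and 60%.

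The limit fell on the shoulder of the main peak, where 150 fresh and 260 cryopreserved barcodes lay between 8 and 10% and 105 and 121 between 10 and 12%. The fresh barcodes nearest to it had 10.02% (inside) and 9.99% (outside), and the cryopreserved ones had 10.01% and 9.99%. Between 10 and 11% there were 62 fresh and 65 cryopreserved barcodes, and between 9 and 10% there were 49 and 97. The median nuclear UMIs just inside were 4626 (fresh) and 2103 (cryopreserved), and just outside they were 5662 and 3889. Barcodes just over the limit therefore still held much nuclear RNA.

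Far from the limit, the barcodes held little nuclear RNA and as much or more mitochondrial RNA than the others. Nuclear features here are all annotated features outside the run that holds the mitochondrial genes. In the fresh library the median was 585 nuclear UMIs per barcode over the limit (quartiles 210 and 1831) and 12579 at or under it (quartiles 7287 and 19250), a 21.5-fold difference. In the cryopreserved library the medians were 1090 (quartiles 448 and 2187) and 7892 (quartiles 4821 and 12110), a 7.24-fold difference. Median mitochondrial UMIs went the other way, with 612 over the limit against 397 at or under it in the fresh library (1.54-fold) and 356 against 247 in the cryopreserved library (1.44-fold). The quartiles of nuclear UMIs did not overlap between the barcodes over and under the limit in either library.

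Nuclear counts were lower in each higher range. Median nuclear UMIs in the fresh library were 2893 at 10 to 20%, 1244 at 20 to 40%, 465 at 40 to 60%, 209 at 60 to 80% and 76 above 80%. The cryopreserved medians were 1794, 885, 316.5, 164 and 97 in the same ranges. Median mitochondrial UMIs rose over these ranges from 457 to 709 (fresh) and from 265 to 536.5 (cryopreserved). A barcode with a given number of UMIs enters a higher range when its mitochondrial count is higher and its nuclear count lower, so the opposite directions follow in part from the rule. The smallest barcode in either library had 500 UMIs, and droplets below that count were not analysed here.

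**Figure D2:**
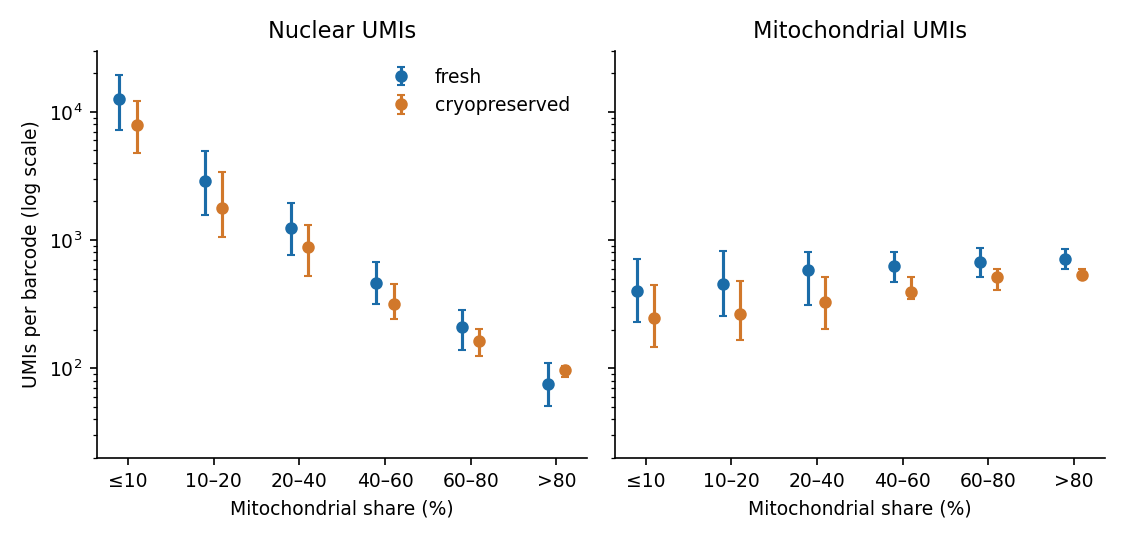
Median UMIs per barcode (log axis, bars from the lower to the upper quartile over barcodes) on nuclear features and on the 13 mitochondrial protein genes, by range of mitochondrial share, in each library. Nuclear medians run from 12579 to 76 among fresh barcodes and from 7892 to 97 among cryopreserved ones, while mitochondrial medians stay between 247 and 709.

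Although numerous, these barcodes held a small part of the sequenced nuclear RNA. They carried 2.96% of the nuclear UMIs of the fresh library (1499092) and 1.81% of those of the cryopreserved library (734456), but 27.7% and 11.2% of the mitochondrial UMIs. Most of the nuclear UMIs over the limit came from barcodes at 10 to 20%, which held 1056268 among fresh and 650563 among cryopreserved barcodes. The sum of all nuclear UMIs past the limit is therefore mainly a picture of the 10 to 20% range. Single genes can differ. HBB, a globin gene, had 676 of its 2562 fresh UMIs over the limit in that range and 1411 above 40%. At equal depth the number of genes was similar. Thinned to 500 nuclear UMIs each, the fresh barcodes over the limit had a median of 386 genes and the others 381, and the cryopreserved ones had 370 and 377. This thinning left out 467 fresh and 127 cryopreserved barcodes over the limit that had too few UMIs. The highest values over the limit were 4235 genes and 23187 UMIs, so that none of these barcodes passed the study's maxima of 4500 genes and 30000 UMIs. Flow sorting, as the paper describes it, gates out cell doublets, and no doublet caller was run here. The libraries shared 6 barcode sequences, none of them over the limit.

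The abundant mitochondrial transcripts were in nearly the same proportions over and under the limit. Of the 13 genes, those with at least 1% of mitochondrial UMIs had shares over the limit that were 0.94 to 1.13 times those under it. COX1, the catalytic subunit of cytochrome c oxidase, took 17.2% of mitochondrial UMIs over the limit among fresh barcodes and 17.5% among cryopreserved ones. CYTB, the cytochrome of complex III, took 9.33% and 9.89%, and ND4, a proton-pumping subunit of complex I, took 6.16% and 6.85%. Larger gaps lay between the libraries. ND3, a small complex I subunit, took 2.32% over the limit among fresh barcodes and 0.474% among cryopreserved ones, and its shares under the limit were 2.40% and 0.480%. COX3, another cytochrome c oxidase subunit, took 18.8% and 10.6% over the limit, and 19.1% and 11% under it. ND6, a rarer complex I transcript, was lower over the limit in both libraries, at 0.143% (0.134 to 0.152%) against 0.177% (0.171 to 0.183%) and at 0.111% (0.0955 to 0.127%) against 0.166% (0.159 to 0.173%). The gaps in ND3 and COX3 thus went with the library, and that in ND6 with the limit.

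Lineage was read from the nuclear UMIs alone, by the share that each barcode gave to sets of collagen, keratin, endothelial, leukocyte and mural genes. Each share was divided by the share of that list in all nuclear UMIs of both libraries. A barcode was placed in the class with the highest quotient when that was at least 0.5, was at least 2 times the next one, and rested on at least 3 UMIs. Of the fresh barcodes over the limit, 586 (58.4%) reached no class, against 10.9% of those under it. Among cryopreserved barcodes 163 (36.5%) reached none, against 8.18%. Thinning every barcode to 500 nuclear UMIs brought the groups closer, with 59.2% (fresh) and 44.8% (cryopreserved) of those over the limit and 30.6% and 26.7% of those under it without a class.

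Among the barcodes that could be placed, collagen and keratin barcodes were the most numerous. Over the limit in the fresh library, 130 barcodes fell in the collagen class (12.9%), 155 in the keratin class (15.4%), 69 in the endothelial class (6.87%) and 18 in the leukocyte class (1.79%). The cryopreserved counts were 81 (18.2%), 59 (13.2%), 55 (12.3%) and 53 (11.9%). Seen from the classes, 18.2% of fresh keratin barcodes, 13% of endothelial, 12.1% of collagen, 3.96% of leukocyte and 3.61% of mural barcodes lay over the limit. The cryopreserved library had 5.44%, 9.43%, 6.90%, 6.67% and 2.47% in the same order. Without the barcodes over 60%, where keratin gave a mixed reading against free RNA (given further on), the fresh keratin share was 66 of 763 (8.65%, 6.75 to 10.9%), below the endothelial share of 13% (10.3 to 16.2%), and the cryopreserved one was 43 of 1068 (4.03%). The fresh collagen share without them was 87 of 1035 (8.41%, 6.79 to 10.27%), just under the endothelial interval, which began at 10.29%. In the cryopreserved library the collagen share was 65 of 1158 (5.61%). This setting was added after the values were seen. The endothelial class counts PECAM1, a gene of its list. In the fresh library the other genes of that list were lower over the limit as a sum (given further on). With all barcodes, the 95% intervals of classes next to each other in order of share overlapped, keratin with endothelial barcodes in the fresh library and keratin with mural barcodes in the cryopreserved one included. The exception was the gap between collagen and leukocyte barcodes in the fresh library.

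The class shares varied along the mitochondrial range, and so did the depth. Endothelial barcodes stood mostly just over the limit, with 51 of 283 fresh barcodes at 10 to 20% (18.0%) and 52 of 276 cryopreserved barcodes (18.8%), against 13.6% and 12% under the limit. PECAM1 gave 450 UMIs to the fresh barcodes at 10 to 20%. Classes without PECAM1 were not computed, so how far the fresh endothelial shares rest on it was not tested. Keratin barcodes went from 26 of 283 (9.19%) at 10 to 20% to 71 of 273 (26.0%, 20.9 to 31.6%) at 60 to 80% in the fresh library. The cryopreserved library had 35 of 276 (12.7%, 8.99 to 17.2%) and 14 of 67 (20.9%, 11.9 to 32.6%), with overlapping intervals. Thinned to 200 nuclear UMIs, the keratin share was 5.30% at 10 to 20% and 18.1% above 40% in the fresh library, and 7.97% and 9.52% (4 of 42) in the cryopreserved one. The number of UMIs available to place a barcode fell over the same ranges. The endothelial list took 0.0386% of all nuclear UMIs and the keratin list 0.952%, so 3 endothelial UMIs are seldom reached at a median of 209 nuclear UMIs. Endothelial barcodes were not detectable at that depth, and the count of 0 between 60 and 80% in both libraries sets no limit on them.

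Summed nuclear counts do not depend on placing single barcodes. Values here are UMIs of a gene or list per 1000000 nuclear UMIs (CPM) summed over barcodes, and log2 ratios compare the barcodes over the limit with those under it in the same library. Genes were compared singly where a library held at least 200 of their UMIs over and under the limit together. The endothelial list was higher over the limit, at a log2 ratio of 0.53 among fresh and 0.91 among cryopreserved barcodes. The collagen list was lower at −0.88 and −0.44, the keratin list at −1.37 and −1.18, the mural list at −2.0 and −0.97, and the leukocyte list at −2.07 and −0.83. Without PECAM1, its most abundant gene, the endothelial list was at −0.22 (fresh) and 0.60 (cryopreserved), so that the fresh value turned negative, a setting added after the values were seen.

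Collagens, the main fibrous proteins that fibroblasts lay down in the dermis, did not move together. Their summed level was 75310 CPM under the limit in the fresh library, 47747 at 10 to 20%, 29330 at 20 to 40% and 16964 above 40%. The cryopreserved library had 61650, 43799, 68542 and 26782, where 5 barcodes held 58.2% of the collagen UMIs at 20 to 40%. COL3A1, the chain of type III collagen, was at 16584 CPM under the limit and 5607 over it among fresh barcodes, and at 13655 and 5701 among cryopreserved ones (log2 ratios −1.56 and −1.26). COL1A2, one of the chains of type I collagen, had log2 ratios of −1.42 and −0.73. COL1A1, its partner chain, had −0.39 and −0.01. At 10 to 20% COL1A1 was at −0.15 (fresh) and −0.04 (cryopreserved) and COL1A2 at −1.24 and −0.81. Above 40% the order of the pair turned, with COL1A1 at −2.33 and −1.45 and COL1A2 at −1.97 and −0.99, and between 60 and 80% COL1A2 was at 7548 and 7966 CPM and COL1A1 at 6274 and 7195. The ratio of the type I chains over the limit thus depended on the range. Fibroblast products other than collagens were lower as a sum, at −0.84 and −0.78, with DCN, the proteoglycan decorin, at −0.92 and −1.11 and SPARC, a matrix glycoprotein, at −0.86 and −0.72.

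Keratins build the filaments of epidermal cells. Over the limit as a whole KRT10 and KRT1, of the differentiating layers, had the lowest ratios among the measured keratins. KRT10, a keratin of suprabasal cells, was at 814 CPM over the limit and 2917 under it among fresh barcodes, and at 425 and 2166 among cryopreserved ones (log2 ratios −1.84 and −2.35). Its partner KRT1 had −1.54 and −2.64, and KRTDAP, another product of differentiating keratinocytes, had −1.52 and −2.59. SBSN, also a late differentiation gene, had −1.07 (34 UMIs) among fresh barcodes. Among cryopreserved ones it was at 65.4 CPM over the limit and 62.7 under it. KRT80, another keratin, was higher at 1.23 in the fresh library (23 UMIs). In the cryopreserved library it was at 5.45 CPM over the limit (4 UMIs) and 7.19 under it. KRT5, the keratin of the basal layer, had −1.13 and −0.70. KRT15, another basal keratin, had −1.16 and 0.05. Of 12 measured keratinocyte genes that are not keratins, 3 were more than 2-fold higher and 4 lower in the fresh library (12.2% and 8.52% of all genes), and 2 and 1 in the cryopreserved library (8.31% and 8.25%). Higher in both were CDH3 (P-cadherin) at 1.32 and 1.12, TP63 (a transcription factor of basal cells) at 1.12 and 0.84, ITGB4 (an integrin of hemidesmosomes) at 1.08 and 0.88, and ITGA6, its partner, at 0.88 and 0.96. COL17A1, a collagen of the same hemidesmosomes, had −0.03 and 1.02, so that basal genes did not all move one way. The desmosome genes DSP, DSG3 and PKP1 had 0.73, 0.24 and 0.03 among fresh barcodes and −0.14, 0.13 and −0.11 among cryopreserved ones (the positive values of DSG3 and PKP1 below 0 after the shift between scalings given further on). The sum of these 12 genes was near that under the limit (−0.15 and −0.13, with medians of 0.13 and 0.10 per gene). Above 80% the values rest on few UMIs. KRT1 was at 4789 CPM (40 UMIs) against 1677 under the limit among fresh barcodes and at 1255 (2 UMIs) against 1907 among cryopreserved ones. KRT5 was at 7184 (60 UMIs) against 4912 and at 4391 (7 UMIs) against 4926, and KRT15 at 359 (3 UMIs) against 384 among fresh barcodes.

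The keratin level first fell and then rose along the range. The fresh library went from 9896 CPM under the limit to 3682 at 10 to 20%, 2807 at 20 to 40%, 8318 at 60 to 80% and 17122 above 80%. The cryopreserved library went from 9361 to 4244, 2009, 9680 and 8783, the last on 14 UMIs. Endothelial genes did the reverse, from 393 CPM under the limit to 654 at 10 to 20% and 142 (9 UMIs) at 60 to 80% among fresh barcodes, and from 365 to 729 and to 0 of 11674 nuclear UMIs among cryopreserved ones. The endothelial gain rested on PECAM1 in the fresh library, where the other genes together went from 259 to 223 CPM. PECAM1 is an adhesion molecule of vessel walls that leukocytes and platelets also carry. PECAM1 rose from 133 to 345.5 CPM (518 UMIs over the limit) among fresh barcodes and from 106 to 294 CPM (216 UMIs) among cryopreserved ones, where the other genes went from 259 to 393 CPM. CDH5, the endothelial cadherin, had log2 ratios of −1.09 (13 UMIs) and 0.27 (14 UMIs), and VWF, the clotting factor stored in endothelial cells, had −0.19 and 0.64. Of the UMIs of the lymphatic list over the limit, 719 of 808 (fresh) and 253 of 303 (cryopreserved) were PDPN, which fibroblasts and keratinocytes also make, so that its sum is not read as endothelial. PROX1, a transcription factor of lymphatic vessels, had 0.57 (48 UMIs) and −0.02 (13 UMIs), and CCL21, a chemokine of these vessels, had −0.08 (24 UMIs) and 0.31 (21 UMIs). LYVE1, of the same list, was lower at −3.43 (1 UMI) and −1.27 (5 UMIs). MMRN1 had −0.92 (9 UMIs) in the fresh library and was at 9.53 CPM (7 UMIs) against 7.84 in the cryopreserved one. FLT4 had 0.13 (7 UMIs) in the fresh library. Of the endothelial genes with enough counts, 1 of 12 was more than 2-fold higher and 1 more than 2-fold lower in the fresh library, where 12.2% of all genes compared were higher and 8.52% lower by that much. In the cryopreserved library 4 of 11 were more than 2-fold higher, against 8.31% of all genes, and none lower. The median endothelial gene had −0.35 in the fresh library, opposite in sign to the sum, and 0.64 among cryopreserved barcodes.

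**Figure D3:**
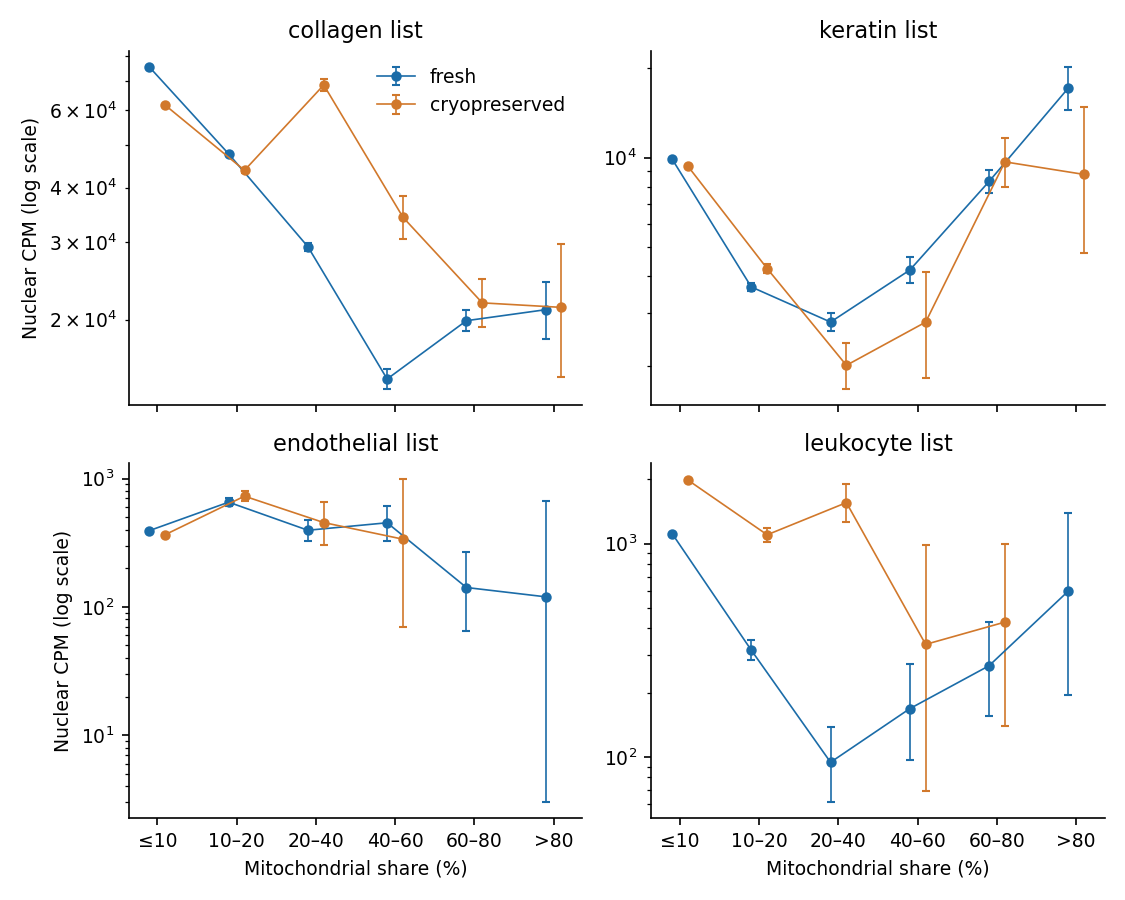
Summed counts of the collagen, keratin, endothelial and leukocyte gene lists per 1000000 nuclear UMIs (log axis) by range of mitochondrial share, in each library, with 95% Poisson intervals. Points at 0 are not drawn. Collagen lies below its level under the limit in all fresh ranges shown, keratin reaches 17122 above 80% in the fresh library, and endothelial genes peak at 10 to 20% with 654 and 729.

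Leukocyte genes were scarce over the limit in the fresh library. C1QA, a complement subunit made by macrophages, was at 10.0 CPM over the limit and 186 under it among fresh barcodes and at 42.2 and 360 among cryopreserved ones. PTPRC, the phosphatase CD45 carried by all leukocytes, had log2 ratios of −1.69 (38 UMIs) and −0.14 (65 UMIs), and TYROBP, an adaptor of myeloid and natural killer receptors, had −1.30 and −1.36. FCER1G, the gamma chain of Fc receptors in myeloid and mast cells, had −0.81 and 0.62. All 13 measured leukocyte genes were lower in the fresh library, 12 of them by more than 2-fold against 8.52% of all genes, with a median log2 ratio of −1.99. In the cryopreserved library 6 of 13 were lower by more than 2-fold, against 8.25% of all genes, and none higher, with a median of −0.80.

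Mast cell genes separated the libraries most. The 5 mast genes, summed, had a log2 ratio of −0.51 (fresh) and 2.64 (cryopreserved). KIT, the stem cell factor receptor, had log2 ratios of −1.01 (45 UMIs) and 2.68 (276 UMIs), MS4A2, a chain of the high-affinity IgE receptor, had −0.38 (44 UMIs) and 2.57 (214 UMIs), and HDC, the enzyme that makes histamine, had −1.06 (10 UMIs) and 3.30 (122 UMIs). FCER1A and GATA2 completed the list at 0.13 and 0.34 among fresh barcodes and 2.04 and 2.52 among cryopreserved ones. Barcodes with at least 5 UMIs of the list numbered 11 (1.10%) over the limit among fresh barcodes and 40 (8.97%) among cryopreserved ones, where they held 92.1% of the mast UMIs. Under the limit they were 8.09% and 5.71%. A fixed cut of 5 UMIs is reached less often at lower depth. Median nuclear UMIs were 585 (fresh) and 1090 (cryopreserved) over the limit, against 12579 and 7892 under it. Of those 40, 38 lay at 10 to 20%, where they were 13.8% of the barcodes. Mast-gene barcodes were thus a small set close to the limit in the cryopreserved library. KIT is also carried by melanocytes, whose transcription factor MITF had log2 ratios of 0.44 and 0.35. MITF is not read as a melanocyte signal here. The melanocyte list, MITF included, was at 194 CPM both over and under the limit within the fresh collagen class. Its other genes had at most 3 UMIs each over the limit in either library.

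The most depleted barcodes need a reading against free RNA. Barcodes of the leukocyte class at or under the limit should make neither collagen nor keratin, and at median depths of 8786 (fresh) and 6158 (cryopreserved) nuclear UMIs, 87.6% and 79.5% of them had a collagen UMI. Of the barcodes over 60%, at median depths of 165 and 145, 86.6% and 75.9% had one, with a median of 2 collagen UMIs per barcode in both libraries against 3 and 2 in the leukocyte barcodes. Without the 5 barcodes with most collagen, the mean was 3.54 against 3.93 among fresh and 2.56 against 4.16 among cryopreserved barcodes. Collagen in the barcodes over 60% was therefore at or under the background level, and a collagen class there cannot be read as expression. Keratin gave a mixed reading. By detection it was higher, since a keratin UMI was seen in 62.5% and 51.8% of the barcodes over 60% and in 36.8% and 29.3% of the leukocyte barcodes. Without the 5 highest barcodes, the mean was 1.68 keratin UMIs against 0.509 in the fresh library and 1.04 against 0.364 in the cryopreserved library. With all barcodes the order turned, at 1.84 against 2.42 and 1.53 against 2.07, where 5 barcodes held 79.2% (fresh) and 82.6% (cryopreserved) of the keratin UMIs of the leukocyte barcodes. Endothelial barcodes under the limit, which should also lack keratin, had 0.833 and 0.816 without their 5 highest. Keratin UMIs per globin UMI were 0.714 and 0.830 over 60% and 1.79 and 1.52 in all leukocyte barcodes. From the means without the 5 highest barcodes, the ratios were 0.692 and 0.653 over 60%, 0.403 and 0.276 in leukocyte barcodes and 0.618 and 0.968 in endothelial ones, so that the order depended on those barcodes and on the reference.

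HBB, the beta globin of red blood cells, was the most abundant named gene after PDE4D above 40% in the fresh library. Globin, which is HBB with a few UMIs of HBM, was counted at 315 CPM under the limit among fresh barcodes and 158 among cryopreserved ones, and at 24306 and 20075 above 80%. The count per barcode changed far less, with 2.21 and 2.0 UMIs above 80% against 4.58 and 1.42 under the limit, where 5 barcodes held 60.4% of the fresh UMIs. At least 1 globin UMI was present in 84.9% (fresh) and 77.1% (cryopreserved) of barcodes over 60% and in 61.8% and 64.3% of leukocyte barcodes under the limit. The number of globin UMIs per barcode thus changed much less than the total, and its CPM rose with the mitochondrial share.

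Gene by gene, the nuclear profile over the limit kept the general order of the profile under it but with many shifts. The fresh library gave 11124 genes with enough counts and the cryopreserved library 10660. Past a 2-fold difference were 20.7% of fresh genes (1354 higher and 948 lower, 12.2% and 8.52%) and 16.6% of cryopreserved genes (886 higher and 879 lower, 8.31% and 8.25%). The correlation of log2 CPM over and under the limit across genes, which are not independent replicates, was 0.901 and 0.902. The balance of higher and lower genes rested on the scaling and on the UMI filter. The trimmed mean of M values (TMM) moved the median of all genes by 0.40 (fresh) and 0.29 (cryopreserved) on the log2 scale, and then 510 genes were higher and 1966 lower among fresh barcodes and 449 and 1448 among cryopreserved ones. With DESeq2 size factors the numbers were 518 and 1944, and 457 and 1432. The share of higher genes among those past 2-fold fell from 58.8% to 20.6 and 21.0% in the fresh library and from 50.2% to 23.7 and 24.2% in the cryopreserved library. On the CPM scale it was 78.9% (fresh) and 76.8% (cryopreserved) with at least 1 UMI per gene. With at least 1000 UMIs it was 45.1% and 35.6%, and for barcodes above 40% it was 53.5% and 78.5%. The shares of all genes higher and lower thus hold for the filter of 200 UMIs. Log2 ratios here are on the CPM scale, and positive values smaller than these shifts fall below 0 under TMM.

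The direction was often shared by the libraries. Of 10570 genes compared in both, 7734 (73.2%) had the same sign, 412 were past 2-fold higher in both, 356 past 2-fold lower in both, and 41 past 2-fold in opposite directions. Of the 10 genes highest in both libraries, 7 had no symbol. PDE4D, a phosphodiesterase that breaks down cyclic AMP, had 16776 and 43560 UMIs among fresh barcodes and 5442 and 31630 among cryopreserved ones, at log2 ratios of 3.66 (95% counting interval 3.63 to 3.68) and 3.22 (3.18 to 3.26). PPP1R36, a regulatory subunit of protein phosphatase 1, had 3.24 and 3.48 on 92 and 50 UMIs over the limit. The unnamed feature ENSSSCG00000044382 had 4.86 and 4.92, and ENSSSCG00000044834 had 3.74 and 3.44.

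Of the 10 genes lowest in both libraries, 9 had a symbol. C1QA led them at −4.22 and −3.09. IGFBP5 and IGFBP6, which bind insulin-like growth factors, were at −2.59 and −2.42 and at −2.13 and −2.66. ADAMTS4, a protease that cuts the proteoglycan aggrecan, was at −2.68 and −2.70, and CCL2, a chemokine that draws monocytes, was at −2.16 and −2.46. FOLR1, a folate receptor, had −2.67 and −2.31, SLC39A1, a zinc importer, had −2.35 and −2.10, and AGT, the angiotensin precursor, had −2.03 and −3.36. The class make-up differed over and under the limit, and its part in these ratios was not tested across all classes.

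Groups of housekeeping genes were lower over the limit, while the median gene stood at 0.18 (fresh) and 0.10 (cryopreserved). Cytosolic ribosomal proteins had a median of −1.03 over 59 measured genes in the fresh library, with all 59 lower and 33 past 2-fold, and −0.80 in the cryopreserved library, with 52 lower and 19 past 2-fold, beside 8.52% and 8.25% of all genes past 2-fold lower. RPLP1, a stalk protein of the large subunit, had −1.18 and −1.24, while RPS20 of the small subunit had −0.48 and 0.20 (below 0 on the TMM scale in both libraries). Nuclear-encoded subunits of the respiratory chain, the partners of the mitochondrial genes in the same complexes, had medians of −0.58 and −0.61 over 64 genes, with 15 and 12 past 2-fold lower and none higher, beside the same 8.52% and 8.25%. Genes of the endoplasmic reticulum had medians of −0.66 and −0.54 over 22 genes, and actin cytoskeleton genes −0.75 and −0.45 over 20. Lists of the translation, secretion and respiration machinery thus lay below the median gene in both libraries.

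Some lists of stress genes lay near 0 as sums, and the integrated stress response and the metallothioneins did not. The immediate early list had summed log2 ratios of 0.01 and 0.08, the heat shock chaperones 0.11 and 0.19, and genes of apoptosis −0.23 and −0.11 (with medians of 0.02 and 0.18 per gene), and all of these sums fell below 0 when the TMM shift was subtracted. Within these lists FOS, a transcription factor induced within minutes of dissociation, had 0.56 and 0.27 (the latter below 0 after that subtraction), and CEBPD, a transcription factor of the acute phase, had −2.14 and −1.73. HSPH1, a cytosolic chaperone, had 1.26 and 0.89, and HSPA8, the constitutive one, had −0.54 and −0.74. Genes of the integrated stress response, which follows a block of translation, had −0.35 and 0.40 as a sum, with SLC7A11, a cystine importer, at −0.88 and 1.46. Of its 13 measured genes, 1 was more than 2-fold higher and 1 lower in the fresh library (12.2% and 8.52% of all genes). Among cryopreserved barcodes 1 was higher and 0 lower (8.31% and 8.25% of all genes). Of 19 genes of glycolysis and hypoxia, 3 were more than 2-fold higher and 1 lower in the fresh library (12.2% and 8.52% of all genes), and 1 and 2 among cryopreserved barcodes (8.31% and 8.25%), near those shares. VEGFA, the vascular growth factor, had 1.56 and 1.09, and NDRG1, another hypoxia target, 1.01 and 0.73, while the glycolytic enzymes GAPDH and TPI1 had −1.19 and −0.67 and −0.81 and −1.03. ADM, also induced by hypoxia, had −0.35 and 0.08. VEGFA and NDRG1 stayed above 0 after the TMM shift was subtracted. Above 40%, NDRG1 had 1.97 on 556 UMIs among fresh and 1.91 on 59 UMIs among cryopreserved barcodes. Metallothioneins, which bind zinc and copper, were lower over the limit in the fresh library (−0.98) and higher in the cryopreserved library (0.59), where 5 barcodes held 32.6% of their UMIs. Cryopreserved barcodes with at least 5 metallothionein UMIs were 62 over the limit (13.9%, against 31.2% under it). These shares do not compare levels, since the cut is reached less often at a median of 1090 nuclear UMIs than at 7892. Of those 62, 57 lay at 10 to 20% and 5 above 20%. With the limit at 20%, the cryopreserved metallothionein median turned negative.

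**Figure D4:**
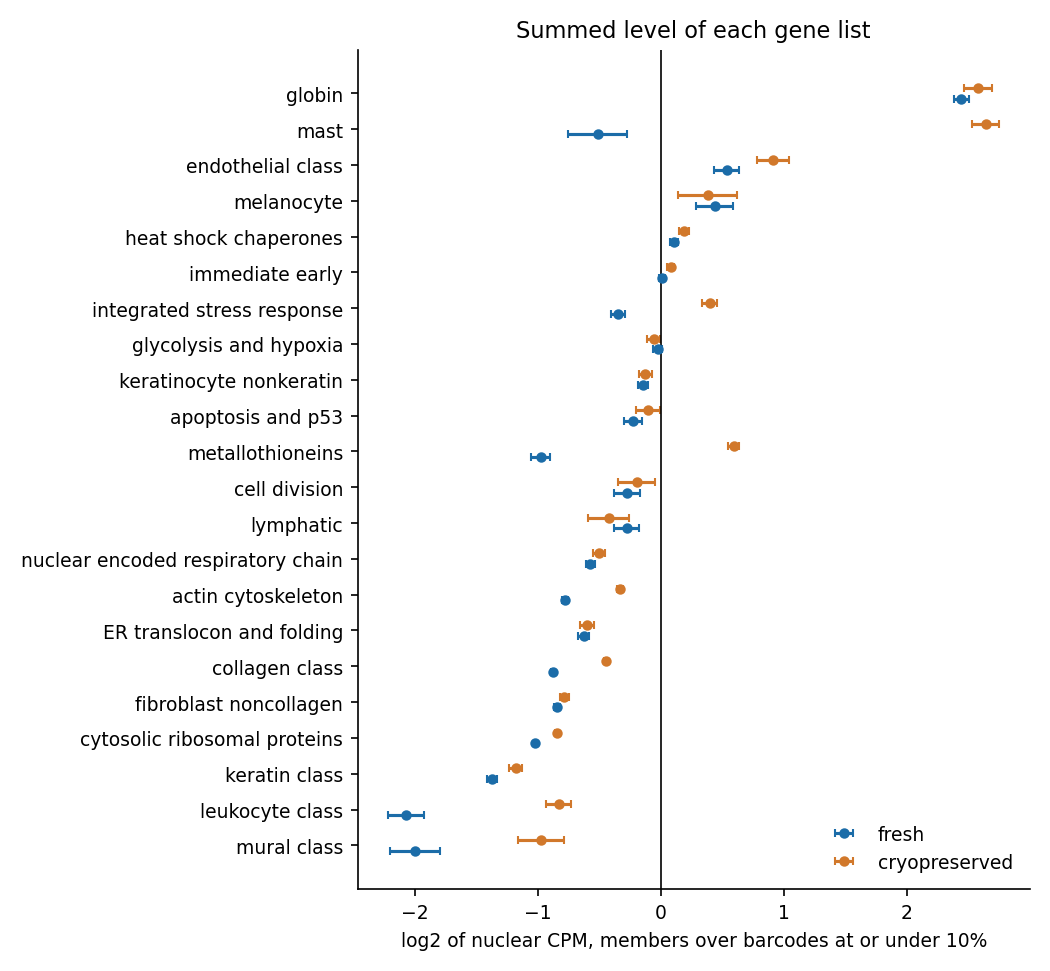
Log2 ratio of summed counts per 1000000 nuclear UMIs over the limit to those at or under it, by gene list, in each library. Lists with at least 20 UMIs over the limit in both libraries are shown. Most lists have the same sign in both libraries, with ribosomal proteins at −1.02 and −0.84 and globin at 2.44 and 2.58, and the mast list (−0.51 and 2.64), the metallothioneins (−0.98 and 0.59) and the integrated stress response (−0.35 and 0.40) have opposite signs. With the limit at 20%, the cryopreserved metallothionein median turned negative.

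Within the collagen class the ribosomal and respiratory chain genes lay nearer to the median gene. In the fresh library the 130 collagen barcodes over the limit had a median of 21.7-fold fewer nuclear UMIs than those under it and 1.5-fold more mitochondrial UMIs. The 81 cryopreserved ones had 11.2-fold fewer and 1.74-fold more. Above 40%, towards the range where collagen was at background level, lay 57 of the 130 and 25 of the 81. The median log2 ratio of ribosomal protein genes was −0.19 and −0.31, and that of the respiratory chain genes 0.34 and 0.01, beside a median of all genes of −0.01 and −0.01. Actin cytoskeleton genes had −0.34 and −0.58 there, and genes of glycolysis and hypoxia −0.46 and −0.44, as medians. The summed actin list had 0.07 (fresh, opposite in sign to its median) and −0.09, and the summed glycolysis list −0.41 and −0.34. Past 2-fold were 26.8% of 9124 genes in the fresh library and 25.8% of 8355 in the cryopreserved library, and 63.8% of the genes compared in both had the same sign. The collagen barcodes over the limit held 267903 and 143272 nuclear UMIs, and 325 and 568 of these genes had none there. Counting error therefore enters these shares. PTX3, a secreted pattern recognition protein, had −3.94 and −4.22, SOD2, the mitochondrial superoxide dismutase, had −2.86 and −2.91, and EFEMP1, an elastic fibre protein, had −2.72 and −2.76.

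Among keratin barcodes fewer genes shared their direction. In the fresh library the 155 keratin barcodes over the limit had 44.2-fold fewer nuclear UMIs than those under it and 0.969 times the mitochondrial UMIs, so that they differed mainly in the nuclear count. Above 40% lay 115 of them, and 89 lay over 60%, where keratin gave a mixed reading against free RNA. The 26 fresh keratin barcodes at 10 to 20% had a median of 5163 nuclear UMIs, against 17546 under the limit. The 59 cryopreserved ones had 3.93-fold fewer nuclear and 1.10 times the mitochondrial UMIs, and 19 of them lay above 40%. The keratin barcodes of the libraries thus came from different parts of the range. Past 2-fold were 20.7% of 8846 genes and 21.1% of 8456 genes, but only 52.5% of the genes compared in both had the same sign, and 183 were past 2-fold in opposite directions against 95 higher and 143 lower in both. Genes needed at least 100 UMIs over and under the limit together. The keratin barcodes over it held only 210206 and 165844 nuclear UMIs, and 204 and 450 of the genes had none there. Counting error therefore enters these shares, and its part was not tested. Genes lower in both were SPRP, a protein of the cornified envelope, at −2.10 and −3.28, MDH1, the cytosolic malate dehydrogenase, at −1.40 and −1.61, and GLTP, which carries glycolipids, at −1.31 and −1.82. HBB was higher at 3.73 and 1.89. Respiratory chain genes had medians of −0.46 and −0.89 and ribosomal protein genes −0.39 and −0.71 in this class, lower than in the collagen class in both libraries.

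Endothelial and leukocyte barcodes need more RNA to be placed, since their lists take 0.0386% and 0.148% of nuclear UMIs against 6.85% for collagen and 0.952% for keratin. Over the limit endothelial barcodes had 3.97-fold (fresh) and 2.41-fold (cryopreserved) fewer nuclear UMIs and 1.39-fold and 1.49-fold more mitochondrial UMIs. Leukocyte barcodes had 7.19-fold and 4.91-fold fewer nuclear UMIs and 0.888 and 1.06 times the mitochondrial UMIs. The barcodes with least RNA are thus missing to a different degree from each class, and the gaps are not ranked between classes.

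Some features outside the 13 genes were abundant where the mitochondrial share was high. In the run of features that holds the 13 genes, 24 others have no symbol, and 2 of them, ENSSSCG00000018063 and ENSSSCG00000018061, held 99.98% of the UMIs of the 24. ENSSSCG00000018063 had 6.29 UMIs per 100 mitochondrial UMIs under the limit and 7.32 over it among fresh barcodes and 4.96 and 6.62 among cryopreserved ones, with 9.90 and 7.44 at 10 to 20% and 2.41 and 2.26 above 80%. Neither it nor PDE4D, annotated as a nuclear gene, kept a constant count per mitochondrial UMI along the range. The PDE4D count per 100 mitochondrial UMIs was 2.53 under the limit and 2.55 over it among fresh barcodes and 2.29 and 3.13 among cryopreserved ones. At 10 to 20% it was 3.81 and 3.70, above the level under the limit, and it was below that level from 60% on, with 1.45 and 1.63 at 60 to 80% and 0.372 and 0.376 above 80%. Per 100 UMIs of ENSSSCG00000018063, PDE4D varied less up to 60%. That ratio was 40.3 (fresh) and 46.1 (cryopreserved) under the limit, 38.5 and 49.6 at 10 to 20%, and 35.5 and 51.4 at 40 to 60%. It was 29.7 and 37.8 at 60 to 80%, and 15.5 and 16.7 above 80%. Above 40% PDE4D was the most abundant nuclear gene in both libraries, at 38943 CPM (6506 UMIs) among fresh barcodes and 48605 CPM (1078 UMIs) among cryopreserved ones, against 887 and 795 under the limit.

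In RefSeq's annotation of Sscrofa11.1 an intron of PDE4D holds a stretch of 227 bases that matched a mitochondrial ribosomal RNA gene in the sense direction, with 95.6% identity. PDE4D counts are uncertain for that reason, and where its UMIs came from was not tested.

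Further nuclear matches were found. Of 45 nuclear stretches with at least 90% identity over at least 100 bases, 21 lay in an annotated gene. They touched 13 genes with a symbol of their own, 8 of them in the sense direction. The 4 of these 8 measured in both libraries were PDE4D, PTPRO (a receptor phosphatase) at 1.76 and 1.81, LGALS8 (galectin-8) at −0.04 and 0.32, and PRKG1 (a cyclic GMP-dependent kinase) at −1.15 and −1.65. SPOCK3, a proteoglycan gene with an antisense match, had 0.64 and 1.35 on 13 and 10 UMIs over the limit. Whether reads came from any of these stretches was not tested.

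**Figure D5:**
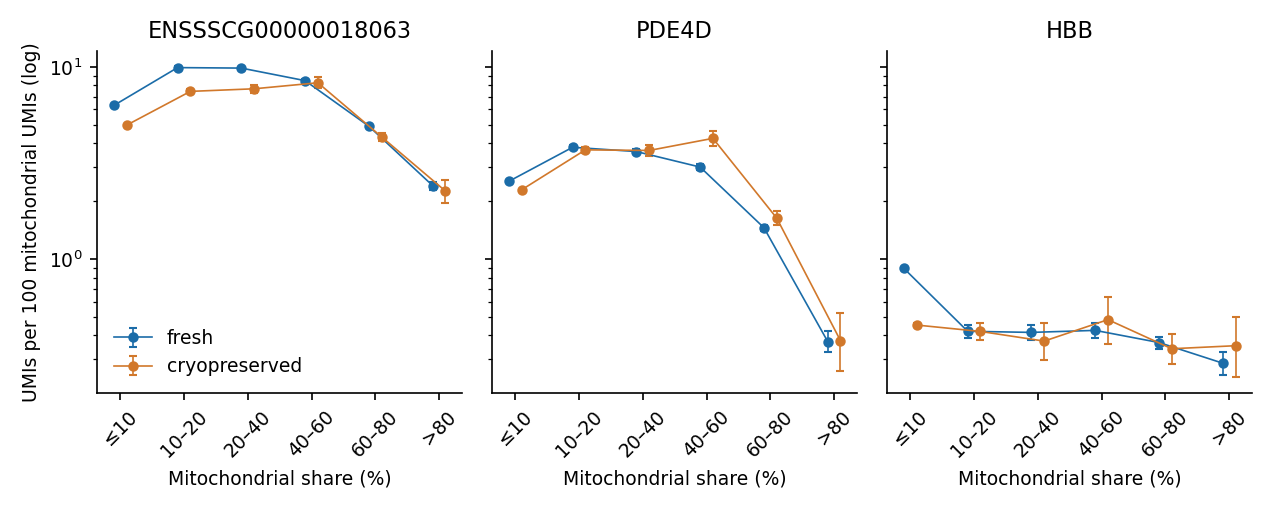
UMIs of ENSSSCG00000018063, PDE4D and HBB per 100 UMIs of the 13 mitochondrial protein genes (log axis) by range of mitochondrial share, in each library. ENSSSCG00000018063 has 7.32 (fresh) and 6.62 (cryopreserved) over the limit as a whole, and PDE4D falls from 3.81 and 3.70 at 10 to 20% to 0.372 and 0.376 above 80%.

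Compared directly, the barcodes over the limit in the cryopreserved library differed from those in the fresh library in 240 of 2454 genes by more than 2-fold (9.78%, with 103 or 4.2% higher and 137 or 5.58% lower in the cryopreserved library). KIT (log2 ratio 3.65, against −0.05 under the limit) and MS4A2 (3.31 against 0.36) were among the 5 highest genes, and MT1X, a metallothionein, had 2.68 against 0.88. Among the lower genes CCBE1, a secreted factor of lymphatic growth, had −1.95 against −1.15. PIK3C2G, a phosphoinositide kinase, had −1.83 against 0.12, and LRP4, a co-receptor of Wnt and agrin signals, had −1.81 against −0.40. Since the fresh barcodes over the limit lay higher in the range and held another mix of classes, the conditions and the make-up of the barcodes cannot be told apart in these ratios. Within the collagen class 3.07% of 521 genes and within the keratin class 22.9% of 669 genes passed 2-fold between the libraries.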

How the data were processed

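The deposited matrices held raw UMI counts per gene and barcode, which the authors made with Cell Ranger 4.0.0 (STAR 2.5.1b, per the labels) against Ensembl annotation of Sscrofa11.1. Total counts were 53271738 UMIs (fresh) and 42217632 UMIs (cryopreserved), with at least 500 per barcode. Of 31908 features, 16719 had a symbol in the files, 782 took one from a gene name table and 14407 had none. Counts were summed over barcodes and compared as counts per 1000000 nuclear UMIs, with exact binomial, Poisson and conditional ratio intervals. No test across samples was possible with 1 library per condition. The 24 unnamed features of the mitochondrial run were left out of both sums. The members and the gene lists were chosen with earlier results of these data known.

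Named genes had at least 200 UMIs in each library, no barcode with over 25% of their UMIs and the same sign in both libraries. They were the 10 highest and 10 lowest by the smaller ratio, and 5 and 5 within classes (at least 100 UMIs) and between libraries, beside list members. Some genes that met this rule are not reported here. List genes not found under their symbols include KRT14 and KRT17, and none of the 5 genes of a list of nuclear-retained RNAs was found. Genes at 0 were bounded with a floor of 3 counts. Mitochondrial matches in the genome were found with blastn 2.17.0 (E value at most 1e-10). Python 3.11.15 with numpy 2.4.6, scipy 1.17.1 and pandas 2.3.3 was used, and R 4.3.3 with edgeR 4.0.16 and DESeq2 1.42.0 for scaling factors only. The scripts were tested on simulated data.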

Additional observations from a re-analysis of the deposited data

Results flagged for a closer look

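In the run of features around the mitochondrial protein genes, 24 features without a symbol were counted neither as nuclear nor as mitochondrial, yet they held 3.87% of the UMIs of the fresh barcodes over the limit and 1.87% of those of the cryopreserved barcodes over it. Their shares of all UMIs were 0.545% and 0.306% of the libraries. This signal lies outside the features summed in the comparisons.

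Gene lists moved in opposite directions in the 2 libraries in 3 cases, and the difference was not tested. The summed log2 ratio of the mast list over the limit against under it was −0.51 among fresh barcodes and 2.64 among cryopreserved ones. That of the metallothioneins was −0.98 and 0.59. In the cryopreserved library their median turned negative at the 20% limit, and 57 of the 62 barcodes with at least 5 of their UMIs lay at 10 to 20%. That of the integrated stress response was −0.35 and 0.40.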

How the results depend on the processing

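No paired analysis was possible because each condition had 1 library, and no library could be left out. With the limit at 5%, 40.1% of fresh and 34.5% of cryopreserved barcodes lay over it. The shares were 18.5% and 4.77% at 15%, and 16.5% and 3.50% at 20%. Leaving out barcodes past 4500 genes or 30000 UMIs gave 26.6% in the fresh library, and counting the 24 unnamed features as mitochondrial, a choice made after seeing the data, gave 25.2% and 10.9%. Median nuclear UMIs over the limit were 4.65% (fresh) and 13.8% (cryopreserved) of those under it. They were 16.9% and 39.7% at the 5% limit, 6.05% in the cryopreserved library at 15%, and 2.73% and 3.55% at 20%.

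Of 88 class shares recomputed under another choice, 47 stayed within the counting interval and 41 moved out of it. The keratin class was 19.3% (fresh) and 29.4% (cryopreserved) at the 5% limit, 17.9% in the fresh library at 20%, 22.9% and 18.2% with 1 UMI of the list, 5.38% and 8.07% with 10, and 9.86% and 7.65% after thinning to 200 nuclear UMIs. The collagen class was 14.3% and 22.9% in the cryopreserved library at the 5% and 20% limits, 15.4% in the fresh library with the highest quotient alone, 19.2% there after thinning to 500 UMIs, and 17.8% and 23.0% after thinning to 200.

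The number of genes past 2-fold was 2302 (fresh) and 1765 (cryopreserved). It was 3479 and 2803 with at least 50 UMIs, 1029 and 686 with at least 1000, and 5788 and 4581 with at least 1. At the 20% limit it was 2721 in the cryopreserved library. Of 344 list medians recomputed under another choice, 62 changed sign, 10 of them from a median of at least 0.5 in size. At the 20% limit in the cryopreserved library the collagen median became 0.22 and the metallothionein median −1.27. Within the collagen class the keratin median became 0.40 and 1.09, the respiratory chain median 0.34 and 0.011, and the cryopreserved collagen median 0.053. Within the keratin class the fibroblast median became 0.59 and 0.42, and the cryopreserved collagen median 0.073. Among the smaller medians that changed sign within the keratin class, the fresh collagen median became 0.49, the fresh keratinocyte median −0.42 and the cryopreserved immediate early median −0.74. Without PECAM1, left out after the values were seen, the summed endothelial ratio became −0.22 in the fresh library. The cause of these changes was not tested.

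Depth limits the ranges above 60%, where a barcode held a median of 165 (fresh) and 145 (cryopreserved) nuclear UMIs. Such counts show abundant genes only.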
